A study of Mus musculus with 6 samples.

Results

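Tissue kallikreins are secreted serine proteases, and Spink proteins are Kazal-type inhibitors of such proteases. The set described here holds 10 mouse genes, 8 kallikreins (Klk5, Klk6, Klk7, Klk8, Klk10, Klk11, Klk13 and Klk14) and 2 inhibitors (Spink5 and Spink8), taken by gene symbol from the probes of a whole-genome array. A probe was found for 9 of them and none for Klk13. All 9 were well above background on all 6 arrays and were tested among 16495 genes; 27573 genes are named on the array.

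In the upper epidermis, kallikreins are released as inactive precursors into the space between dying keratinocytes, where they cleave the desmosomal proteins that hold the cornified cells together, so that these can be shed. Klk5 can activate itself and other kallikreins, Klk7 and Klk14 among them. Spink5 encodes LEKTI, a secreted inhibitor of Klk5, Klk7 and Klk14, whose loss causes Netherton syndrome, a disorder of excessive skin shedding and inflammation.

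The cultures were keratinocytes, the cells that build the outer skin, freshly prepared from newborn wild-type mice along with hair follicle buds. All cultures, controls included, carried the oncogene v-ras-Ha, brought in with virus at 10 particles per cell; a culture without it was not analysed here. At 5 hours after transduction 3 cultures were given Anakinra, a recombinant antagonist of the interleukin-1 (IL-1) receptor, at 5 ug/ml, and the other 3 were given PBS. RNA was harvested 3 days later, and fresh antagonist was added at 2 days. The question was which transcripts of these ras-expressing cells change when the receptor is blocked. The labels do not say whether cultures came from separate animals, so a p-value here reflects how far these particular cultures differ, and that spread may be technical.

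All 11 keratinocyte markers were above background in at least 1 group and none passed the test (median log2 change 0.17). A positive sign was seen in 6 of the 11, with changes from -0.14 to 0.26. The 2 with the smallest p were Krt6a at 0.26 ± 0.07 (adjusted p = 0.177) and Dsp at 0.20 ± 0.07 (adjusted p = 0.250). Genes known to answer to IL-1 fell in all 6 cases listed. The neutrophil chemokine Cxcl5 fell by 5.06 ± 0.25 on the log2 scale (SE, n = 3 per group, limma adjusted p = 0.00326) and Nfkbia, which encodes an NF-kB inhibitor, fell by 1.23 ± 0.08 (adjusted p = 0.00739). Without PBS 2 neither passed (adjusted p = 0.0627 and 0.0843), and without PBS 1 Nfkbia did not (adjusted p = 0.0521). The share of spots well above background was 62.5% to 71.0% on the PBS arrays, and 56.1%, 86.5% and 55.6% on Anakinra arrays 1, 2 and 3. Pairwise correlation over the tested genes with a value on every array was 0.995 to 0.997 among PBS arrays and 0.957 to 0.983 among Anakinra arrays. Slide 1 held PBS 2, PBS 3 and Anakinra 1, and slide 2 held the other 3 arrays.

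The promoters of the 3 kallikreins that show the range of the response are given here: Klk5, which rose, Klk7, a protease that Klk5 can activate and whose change was smaller, and Klk6, whose change was nearest to 0 among the kallikreins. Each is the RefSeq window from 250 bases before to 50 bases after a transcription start on build GRCm38.p6, plus strand, with matches to the NF-kB core GGGNNNNNCC on either strand in capitals.
Klk5, chr7:43842019-43842318: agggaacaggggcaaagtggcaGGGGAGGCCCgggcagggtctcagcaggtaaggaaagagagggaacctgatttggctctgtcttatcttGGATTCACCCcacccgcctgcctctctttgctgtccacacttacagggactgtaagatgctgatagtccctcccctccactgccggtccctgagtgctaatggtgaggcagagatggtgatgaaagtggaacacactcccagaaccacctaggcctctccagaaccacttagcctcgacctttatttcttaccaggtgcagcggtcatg
Klk7, chr7:43811044-43811343: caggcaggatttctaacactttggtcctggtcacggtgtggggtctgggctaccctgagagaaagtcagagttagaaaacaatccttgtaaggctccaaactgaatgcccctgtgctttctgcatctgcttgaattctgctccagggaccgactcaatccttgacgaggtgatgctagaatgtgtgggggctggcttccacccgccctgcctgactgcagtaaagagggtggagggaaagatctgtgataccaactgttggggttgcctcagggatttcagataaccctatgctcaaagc
Klk6, chr7:43824294-43824593: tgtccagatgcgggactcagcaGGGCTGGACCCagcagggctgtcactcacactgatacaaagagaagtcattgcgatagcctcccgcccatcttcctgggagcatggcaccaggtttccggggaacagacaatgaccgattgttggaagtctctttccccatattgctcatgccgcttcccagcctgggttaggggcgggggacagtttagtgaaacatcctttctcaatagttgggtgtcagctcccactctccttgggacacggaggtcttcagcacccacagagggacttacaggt

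The table of promoters held 10 windows for 8 of the kallikreins, Klk13 included; Klk6 and Klk11 each had 2. The NF-kB core was found in 8 of the 10 windows and in 50.8% of the 32851 windows of all genes, so these loose letters are common. In the Klk5 window it was found at -228 to -219 and at -159 to -150 relative to the start. The Klk7 window and the second Klk6 window held no match. The KLF-type letters CCNCNCCC were in 7 of the 10 windows (49.5% of all windows), and 3 of the 17 NF-kB core matches overlapped one. The C/EBP-type letters TTGCNNAA were in 2, both of Klk11 (10.8%). The AP-1 letters TGANTCA (7.81% of all windows), the grainyhead-like letters AACCNGTT (2.09%) and TATAAA (13.6%) were in none of the 10. Both strands were searched for each motif; a match is a run of letters and not a measured binding site.

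Among the proteases that act in shedding, Klk5 rose under Anakinra. Values below are scaled log2 intensities, log2 processed intensities from which the array's own 75th percentile (log2) was taken away, so they can be compared between arrays for 1 probe but not between probes. Klk5, a trypsin-like protease, read 1.72, 1.59 and 1.76 in PBS 1, 2 and 3 and 2.67, 2.83 and 2.57 in Anakinra 1, 2 and 3. All Anakinra values lay above all PBS values, by a gap wider than the range within either group. The log2 change was 0.999 ± 0.096 (SE, n = 3 per group, adjusted p = 0.0161), which is 2.00-fold. It was 0.996 within slide 1 and 0.977 within slide 2. In bulk RNA a change in the share of differentiating cells and a change in RNA per cell cannot be told apart.

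Klk7, a chymotrypsin-like protease of the cornified layer, has 3 probes, which differ in brightness. The brightest read 7.03, 7.10 and 7.04 in PBS and 7.37, 7.42 and 7.18 in Anakinra. The groups did not overlap, but the change of 0.27 ± 0.08 did not pass (adjusted p = 0.223; 95% confidence interval 0.05 to 0.48). The other probes were at 0.16 ± 0.13 and 0.35 ± 0.09 (adjusted p = 0.629 and 0.170 in a fit over all 25013 probes tested), so all 3 had a positive sign, and the groups overlapped in 1 of them.

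Klk14, a trypsin-like protease that can activate the receptor PAR2, was dim, at processed intensities of 47.0 to 65.9 in PBS and 73.3 to 108 in Anakinra. On the scaled log2 scale it read -4.20, -4.09 and -3.93 in PBS and -3.41, -3.33 and -3.86 in Anakinra. Anakinra 3 lay close to the highest PBS array. The change of 0.54 ± 0.17 did not pass (adjusted p = 0.214).

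The other kallikreins with a probe, whose part in shedding is less well defined, had small positive changes that did not pass. Klk11, a trypsin-like protease, came nearest to the threshold, with 0.60, 0.63 and 0.59 in PBS and 1.21, 1.15 and 0.93 in Anakinra. The groups were separated by a gap wider than the range within either, and the spread in PBS was small. The change was 0.49 ± 0.09 (adjusted p = 0.0813), at 0.60 within slide 1 and 0.44 within slide 2. It passed in 4 of 17 other settings, among them the authors' deposited values (adjusted p = 0.0342) and estimated array weights (adjusted p = 0.0319).

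Klk8, or neuropsin, read 6.18, 6.23 and 6.09 in PBS and 6.56, 6.47 and 6.26 in Anakinra, a change of 0.26 ± 0.10 (adjusted p = 0.289). Anakinra 3 lay just above PBS 2. Klk10 read 3.09, 3.06 and 3.02 in PBS and 3.65, 3.32 and 3.03 in Anakinra, where Anakinra 3 lay within the PBS values. Its change of 0.28 ± 0.17 (adjusted p = 0.497) was 0.61 within slide 1 and 0.09 within slide 2. Klk6, or neurosin, a trypsin-like protease first described in brain, read 6.32, 6.24 and 6.09 in PBS and 6.30, 6.31 and 6.30 in Anakinra. Its groups overlapped and its change was 0.08 ± 0.08 (adjusted p = 0.673), with a 95% confidence interval of -0.12 to 0.29 that does not reach the size of the Klk5 change.

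Of the 2 inhibitors Spink8 rose and Spink5 did not pass. Spink8 encodes a small Kazal-type protein whose target protease is not settled. It rose from -5.23, -5.12 and -4.44 in PBS to -3.07, -2.63 and -2.19 in Anakinra. The groups were separated by more than the range within either, and the change was 2.30 ± 0.31 (adjusted p = 0.0376), which is 4.92-fold. The probe was dim, with processed intensities of 23.0, 28.4 and 46.2 in PBS and 119.5, 175 and 233 in Anakinra. The lowest intensity called well above background was 11.2 to 18.0 on the PBS arrays and 17.6 to 38.4 on the Anakinra arrays. After normexp correction of the background its change was 0.95 (adjusted p = 0.0119). Within slides 1 and 2 it was 1.72 and 2.82. Anakinra 2, the array with the most spots above background, held the middle Spink8 value of its group.

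Spink5, which encodes LEKTI, read 3.42, 3.31 and 3.24 in PBS and 3.40, 3.29 and 3.24 in Anakinra. The ranges of the groups coincided almost entirely. The change was -0.01 ± 0.08 (adjusted p = 0.970), and its 95% confidence interval of -0.22 to 0.20 does not reach the 0.999 measured for Klk5; the difference between these genes was not tested. The Spink5 probe was named by the symbol in the array file, since its accession is not a RefSeq transcript.

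**Figure D1:**
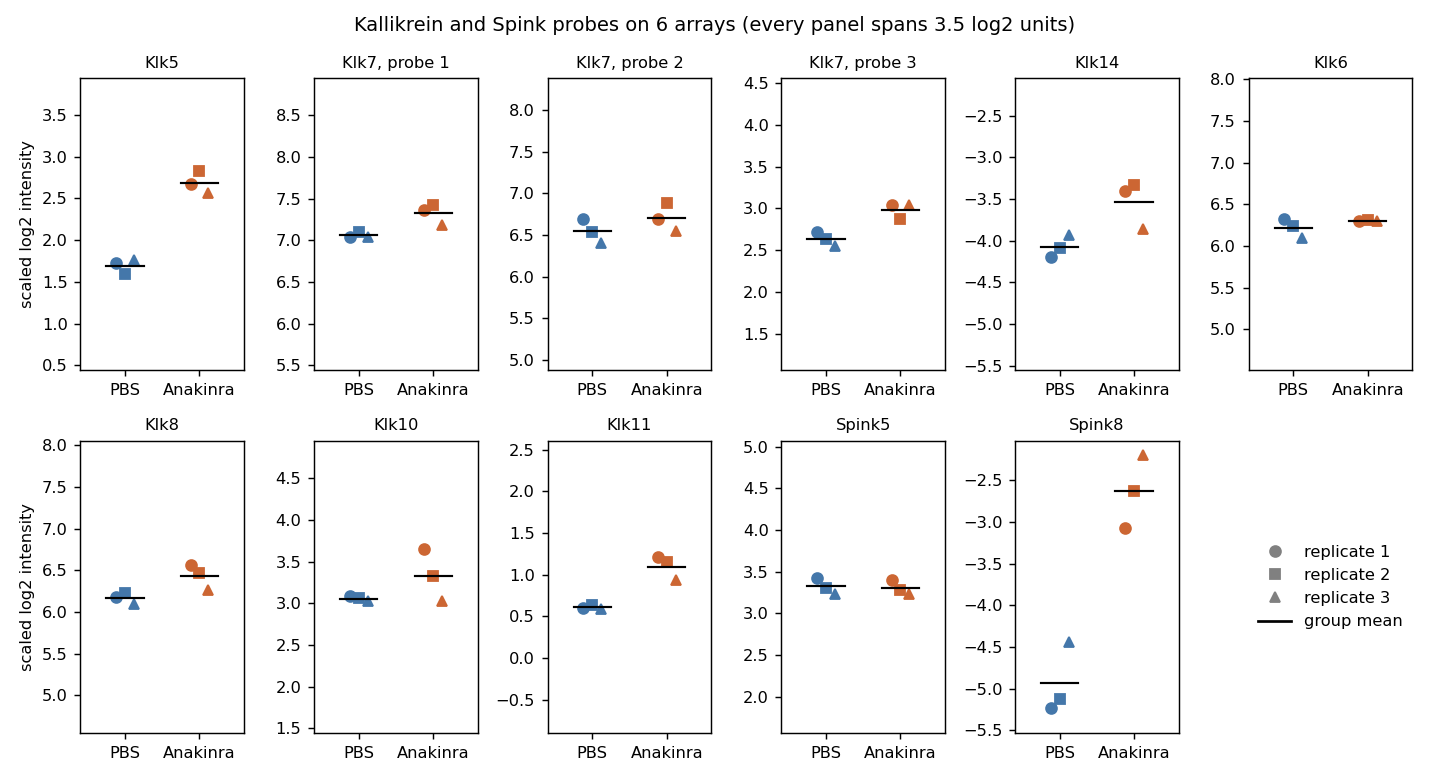
Scaled log2 intensity of each kallikrein and Spink probe on each of the 6 arrays, PBS in blue and Anakinra in orange, with the group mean as a bar and every panel spanning 3.5 log2 units. The groups are separated by more than their spread for Klk5, Klk11 and Spink8, while they coincide for Spink5 and overlap for Klk6, Klk10 and 1 Klk7 probe.

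Counted together, 2 of the 9 tested members were called by limma, both higher and 0 lower, while 1.77% of all tested genes were called, 0.97% higher and 0.8% lower. Among the 9, 6 had an unadjusted p under 0.05, beside 16.1% of all tested genes. Groups did not overlap in 6 of the 9, in each with Anakinra higher, beside 26.2% of all tested genes that did not overlap in either direction and 12.5% with Anakinra higher. The sign was positive in 8 of the 9, and the members' median change was 0.28 beside 0.01 over all genes. With per-array median scaling, which moves the median of all genes to -0.32, 4 of the 9 were positive and Klk6, Klk7, Klk8, Klk10 and Spink5 were negative. This scaling moved each named gene by -0.33, nearly as much as the median of all genes. A change relative to that median is therefore fixed in advance to stay the same, with Klk5 at 0.99 and Klk11 at 0.47 under both scalings.

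Both member calls were lost under some settings. With the slide as a block Klk5 was at 0.99 (adjusted p = 0.0760) and Spink8 at 2.27 (adjusted p = 0.140), and 0 members passed, though 5 had an unadjusted p under 0.05, beside 12.6% of all tested genes. Klk5 was at 0.67 ± 0.45 after per-array median scaling and did not pass (adjusted p = 0.869). In that fit Klk5, Spink8 and Cxcl5 had the same SE of 0.446, beside 0.096 for Klk5 as reported. The p-value there does not reflect the spread of Klk5 itself. It did not pass without PBS 1 (adjusted p = 0.114), PBS 2 (0.149), PBS 3 (0.0844) or Anakinra 1 (0.0684), with changes between 0.95 and 1.03. With each of the 6 arrays left out in turn Spink8 did not pass, with changes from 2.08 to 2.54 and adjusted p-values from 0.0684 to 0.249.

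**Figure D2:**
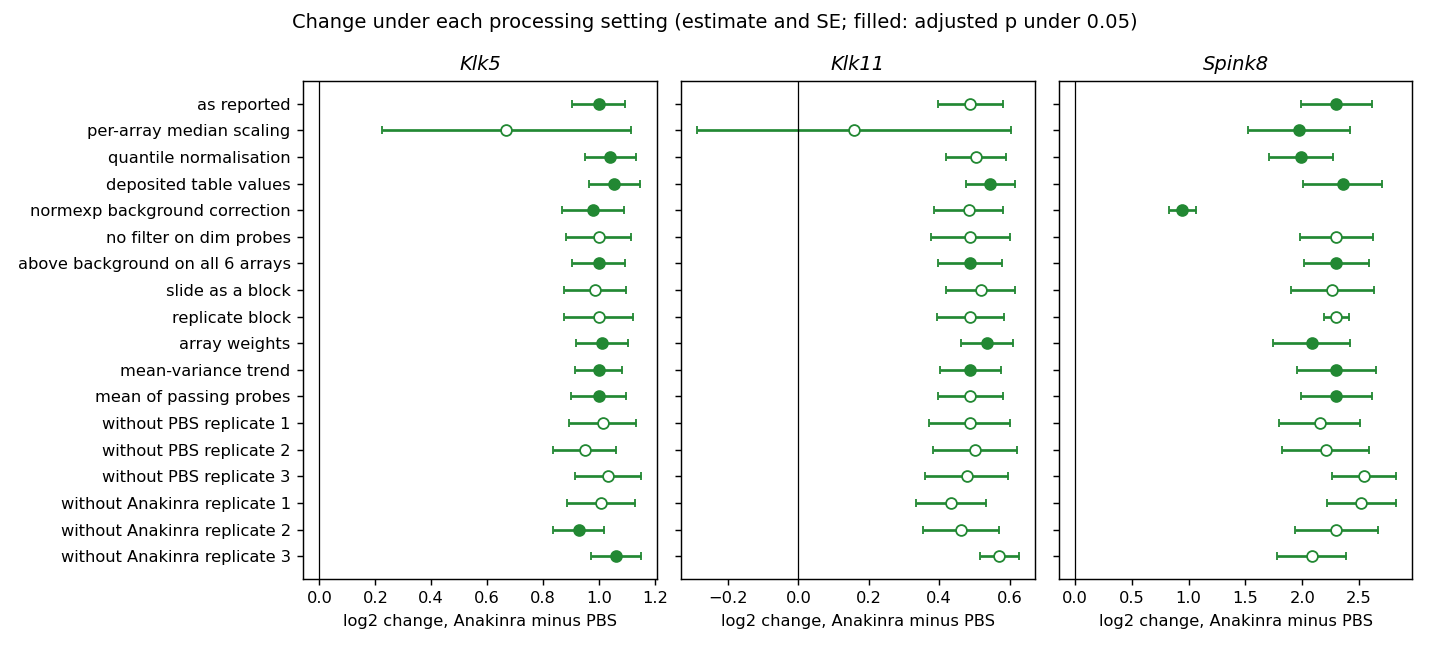
Log2 change with SE of Klk5, Klk11 and Spink8 under each processing setting, filled where the adjusted p is under 0.05. All estimates are above 0; Klk5 lies between 0.67 and 1.06, Klk11 between 0.16 and 0.57, and Spink8 between 0.95 and 2.54.

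The kallikrein genes lie side by side on chromosome 7, in the order Klk14, Klk13, Klk12, Klk11, Klk10, Klk9, Klk8, Klk7, Klk6, Klk5, Klk4 and Klk15, followed by the Klk1b genes and Klk1. On the array's build, mm8, the Klk5 probe lies at chr7:43718841-43718900, the Klk6 probe at chr7:43699635-43699694, the Klk8 probe at chr7:43670127-43670186 and the Klk14 probe at chr7:43562415-43562474. Those of Klk10 (chr7:43651749-43652392), Klk11 (chr7:43644541-43644926) and the brightest of Klk7 (chr7:43681065-43681311) span more than 60 bases on the chromosome. Spink8 is elsewhere, with its probe at chr9:109681957-109683836, and Spink5 is on chromosome 18.

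Of 19 other kallikrein genes 17 were on the array and 5 were tested, none of which passed. The 19 included Klkb1, which lies outside the cluster on chromosome 8 and was not tested. Klk12, between Klk13 and Klk11, read -1.78, -2.01 and -1.83 in PBS and -1.39, -1.01 and -1.41 in Anakinra. Its groups did not overlap, at a change of 0.60 ± 0.14 (adjusted p = 0.123). Klk4, the protease of maturing enamel, was at 0.58 ± 0.30 (adjusted p = 0.429), Klk9 at 0.56 ± 0.69 (adjusted p = 0.763) and Klk1b3 at 0.15 ± 0.23 (adjusted p = 0.827). For Klk9, Anakinra 2 was at -2.50 and the other Anakinra arrays at -4.72 and -4.54. Klk1b26 was at 0.78 ± 1.30 (adjusted p = 0.839) with its Anakinra 1 value below background. The Klk1b genes are near-identical copies of each other, so which of them a probe reads is uncertain; Klk1b16, Klk1b24 and Klk1b27 were not above background on any array.

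Of 10 other Spink genes 5 were on the array and 2 were tested. Spink2, known from testis, was at 0.19 ± 0.09 (adjusted p = 0.418), and Spink12 at -0.04 ± 0.20 (adjusted p = 0.963). Neither passed. Spink6 was not above background on any array.

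**Figure D3:**
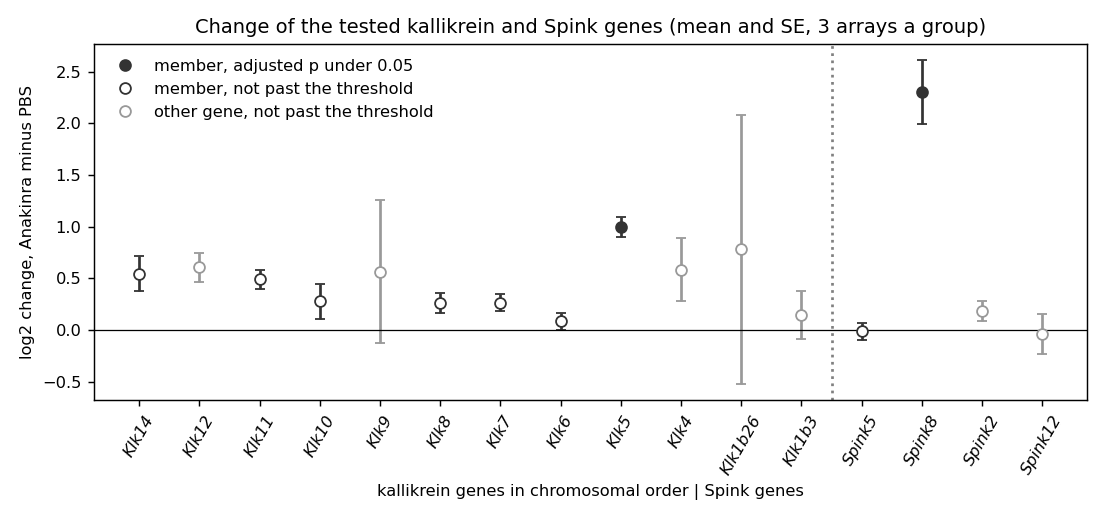
Log2 change with SE, Anakinra minus PBS, of the tested kallikreins in chromosomal order and of the tested Spink genes, filled where the adjusted p is under 0.05. Among these genes Klk5, at 0.999, and Spink8, at 2.30, are filled, the others are open, and Klk1b26 has the widest error at 1.30.

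Genes that surround the cluster were measured too. Of 10 neighbours, non-kallikrein genes next to or between the kallikreins in the RefSeq order, 6 were on the array and 2 were tested, with changes of -0.02 and 0.01 and no call.

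Of 16 tested enzymes that activate kallikreins or act beside them 1 was higher and 15 did not pass, with a median of -0.05. Casp14, the caspase that processes filaggrin in the cornifying layer, rose by 1.08 ± 0.14 (adjusted p = 0.0367; 0.0749 with the slide as a block), and with each single array left out it did not pass (adjusted p from 0.0516 to 0.247). Matriptase, St14, which can activate prokallikreins, was at -0.21 ± 0.12 (adjusted p = 0.452), and prostasin, Prss8, at 0.05 ± 0.07 (adjusted p = 0.811); both were named here after their values were seen, for their place in the cascade.

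Of 16 other inhibitors of serine proteases tested, 1 was higher, 1 was lower and 14 did not pass, and 8 of the 16 had a positive sign. Slpi, an inhibitor of leukocyte elastase that also inhibits Klk7, had a mean of 5.16 in PBS and 3.27 in Anakinra, with groups that did not overlap. It fell by 1.89 ± 0.11 on the log2 scale (adjusted p = 0.00391), a 3.71-fold difference, and did not pass without PBS 1 (adjusted p = 0.0562) or PBS 2 (adjusted p = 0.0630). Wfdc5, a protein with the same WAP fold, rose by 1.11 ± 0.15 (adjusted p = 0.0374; 0.137 with the slide as a block), and with 1 array left out it passed in 1 of 6 cases, without Anakinra 3 (adjusted p = 0.0429).

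Among substrates of the kallikreins, their receptors and related barrier proteins, 5 of 15 tested genes were higher, 0 were lower and 10 did not pass, with a median of 0.37. A positive sign was seen in 13 of the 15. The lowest was Il1f6, named after its value was seen, at -0.81 ± 0.15 (adjusted p = 0.0808), with groups that did not overlap. Of the desmosomal cadherins Dsg1a was at 1.78 ± 0.15 (adjusted p = 0.0124) and Dsc1 at 1.23 ± 0.11 (adjusted p = 0.0125), while Dsg1b, named after its value was seen, was at 0.37 ± 0.14 and did not pass (adjusted p = 0.282). Filaggrin-2, Flg2, was at 1.58 ± 0.21 (adjusted p = 0.0387) and filaggrin, Flg, the fifth by p, at 0.83 ± 0.12 (adjusted p = 0.0395). The cytokine gene Il18 was at 1.33 ± 0.13 (adjusted p = 0.0161). Corneodesmosin, Cdsn, a substrate of Klk5 and Klk7 named here after its value was seen, was at 0.35 ± 0.10 and did not pass (adjusted p = 0.177), and F2rl1, which encodes PAR2, was at 0.27 ± 0.12 (adjusted p = 0.363). In the slide-blocked fit, with per-array median scaling and with no filter on dim probes 0 of the 15 passed; without PBS 1, PBS 2 or Anakinra 1 it was 0, without PBS 3 it was 1, and without Anakinra 2 or Anakinra 3 it was 3.

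Of 24 tested differentiation genes of the upper, suprabasal epidermal layers 13 were higher, 0 were lower and 11 did not pass, with a median of 0.66. Of the 11, 2 had a negative sign, both named after their values were seen: Lce3c, a cornified envelope protein, at -0.42 ± 0.11 (adjusted p = 0.166), and the transglutaminase Tgm3 at -0.62 ± 0.50 (adjusted p = 0.610). Tgm3 was dim, above background on 3 PBS arrays and 2 Anakinra arrays. Krt1, a keratin of the spinous layer, rose by 2.35 ± 0.19 (adjusted p = 0.0112), and the cross-linking enzyme Tgm1 by 0.71 ± 0.07 (adjusted p = 0.0151). Casp14, Dsc1, Dsg1a, Flg and Flg2 are on this list as well. The mean scaled log2 level of the list was 2.62 to 2.81 on the PBS arrays and 3.45 to 3.58 on the Anakinra arrays. The part of this shift in the Klk5 and Spink8 results was not tested. The count was 2 with per-array median scaling, 0 with no filter on dim probes, 0 when slide was a block and 0 when PBS 1, PBS 2 or Anakinra 1 was left out. It was 2 without PBS 3 and 7 without Anakinra 2 or Anakinra 3. Of 15 basal keratinocyte genes none passed in this fit, with a median of 0.12 and Krt15 at 0.52 ± 0.19 (adjusted p = 0.271).

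**Figure D4:**
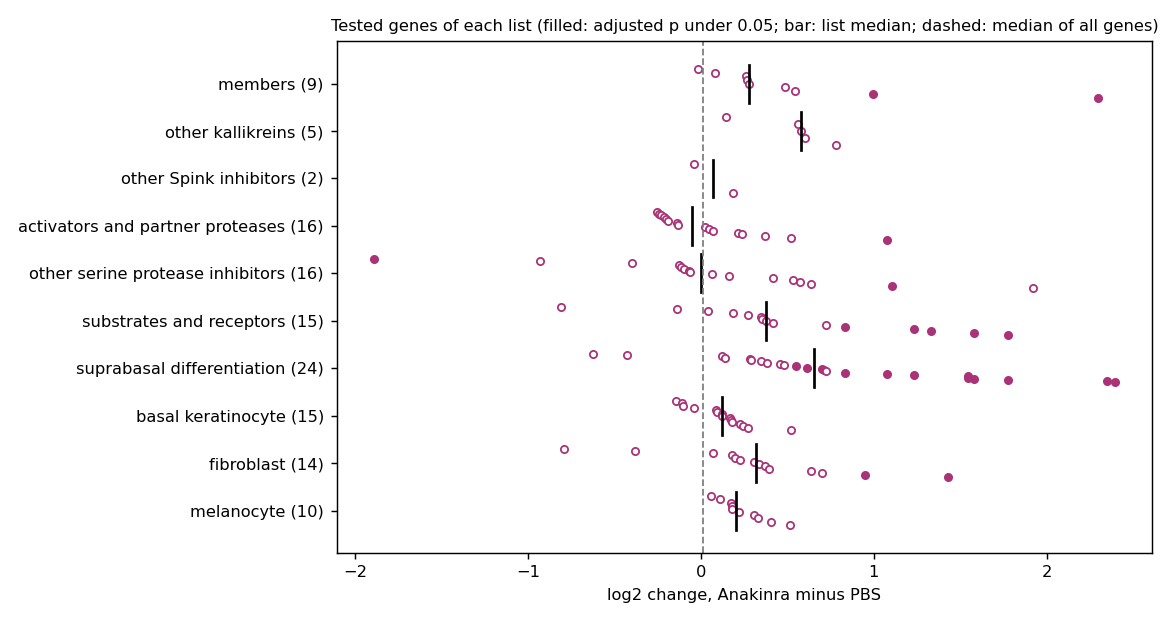
Log2 change of each tested gene by list, with the number tested in brackets, filled where the adjusted p is under 0.05, the list median as a bar and the median of all genes, 0.01, as a dashed line. The suprabasal list has its median at 0.66 and the members theirs at 0.28, while the lists of activators and of other inhibitors are centred near 0.

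Markers of other cells of a newborn epidermal preparation were at the following levels. Of 14 tested fibroblast markers 2 were higher, Lum at 1.43 ± 0.15 (adjusted p = 0.0200) and Col3a1 at 0.95 ± 0.13 (adjusted p = 0.0402), and with 1 array left out Col3a1 passed in 0 of 6 cases (adjusted p from 0.0762 to 0.202) and Lum in 2 of 6, without Anakinra 1 or Anakinra 2. In the slide-blocked fit both calls were lost (Lum adjusted p = 0.0555, Col3a1 adjusted p = 0.143). Of the 14, 12 had a positive sign. Groups did not overlap in 7 with Anakinra higher and in 2 with Anakinra lower, beside 12.5% and 13.8% of all tested genes. The 2 lower, named after their values were seen, were Twist2 at -0.79 ± 0.14 (adjusted p = 0.0712) and Dcn at -0.38 ± 0.07 (adjusted p = 0.0703). The mean scaled log2 level of the fibroblast list was -1.29 to -1.04 in PBS and -0.93 to -0.66 in Anakinra. Of 10 melanocyte markers none passed, with Kit at 0.41 ± 0.09 (adjusted p = 0.122) and Ednrb at 0.52 ± 0.12 (adjusted p = 0.123). All 10 had a positive sign, and the list's level was 0.23 to 0.44 in PBS and 0.47 to 0.71 in Anakinra. Of 11 tested hair follicle and gland markers 1 was higher, Krt79 at 0.86 ± 0.06 (adjusted p = 0.00739, lost without any 1 PBS array), with list levels of 0.09 to 0.19 and 0.11 to 0.50. A positive sign was seen in 6 of these 11. Groups did not overlap in 2 of them with Anakinra higher and in 2 with Anakinra lower. Of 7 tested immune markers none passed (levels -2.16 to -1.85 and -2.68 to -1.56), with Csf1r at -0.33 ± 0.11 (adjusted p = 0.228) and Fcer1g at -0.40 ± 0.15 (adjusted p = 0.277); Ptprc, Cd3e, Cd3g, Itgam and Cpa3 were too dim to test. Of 4 tested endothelial markers none passed (levels -2.60 to -2.49 and -2.85 to -2.37), with Egfl7 at -0.26 ± 0.08 (adjusted p = 0.228) and Kdr at -0.45 ± 0.15 (adjusted p = 0.242). Kdr was dim, above background on 3 PBS arrays and only 1 Anakinra array. The other 2, Pecam1 at 0.12 ± 0.23 and Vwf at 0.11 ± 0.24, had a positive sign here (adjusted p = 0.872 and 0.887) that turned under other settings. The part of these cells in the kallikrein and Spink values was not tested.

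The genes whose values over the 6 arrays were most like those of a called member were found among 14067 other genes above background on all arrays. For Klk5 they were Samhd1, Il18 and Slc46a2, with Pearson r of 0.999, 0.998 and 0.998. For Spink8 they were Skint3, Dok4 and Plb1, at 0.997, 0.996 and 0.994. Pearson r takes no account of the size of a change. Skint3, Dok4 and Plb1 changed by 1.06, 0.18 and 0.92, beside 2.30 for Spink8, and Dok4 did not pass (adjusted p = 0.228). The likenesses are given as a description over 6 arrays in 2 groups, which the genes share.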

How the data were processed

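RNA from 6 cultures was measured on 6 Agilent one-colour arrays, grouped by the treatment label. Per the file headers, the authors read each array with Agilent Feature Extraction 9.5.3.1, which background-subtracted and detrended the processed intensity within the array and replaced the dimmest spots by a surrogate value; nothing was normalised between arrays. The authors' deposited value table holds the log2 of that intensity plus a constant per array, and was used as an alternative.

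The log2 processed intensity was scaled by each array's 75th percentile. Control and outlier spots were left out, and spots of a probe averaged. A probe was kept when every array of 1 or both groups flagged it well above background and each group had 2 or more values; the brightest probe stood for a gene. Names were updated through RefSeq genes of GRCm38.p6. Groups were compared with limma 3.58.1 (R 4.3.3; lmFit and eBayes, two-sided), with Benjamini-Hochberg adjustment over 16495 genes; the threshold was an adjusted p of 0.05. On simulated data with 200 changed genes, 59.4% of changes of 1 and 81.3% of changes of 2 (log2) were recovered over 5 runs, with 6.04% false calls. These rates belong to the simulated data. Whether they hold for the arrays here, whose estimated weights ran from 0.305 to 3.27, was not tested. The fit was rerun under 17 alternatives.

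The members and lists were chosen with earlier results of these data known. All members were named, from each other list up to 4 called genes with the smallest p or 2 where none was called, and every tested kallikrein and Spink gene, except 1 gene of the basal list that is not reported here; of the IL-1 response genes only Cxcl5 and Nfkbia were named. Named after their values were seen were St14, Prss8, Cdsn, F2rl1, Flg, Dsg1b, Il1f6, Lce3c, Tgm3, Twist2, Dcn, Pecam1 and Vwf. The 3 arrays per group limit the precision.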

Additional observations from a re-analysis of the deposited data

How the results depend on the processing

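With 3 arrays a group, calls depended on single arrays and on the model, and some estimates moved as well. Klk5, Klk11, Klk14 and Spink8 had a positive sign under all 17 alternatives. With per-array median scaling the SE was 0.446 for Klk5, Spink8 and Cxcl5 alike, so calls in that fit do not rest on each gene's own spread. The as-reported counts were 160 genes higher, 132 lower and 2 members called. Higher, lower and member counts were 8, 49 and 1 with per-array median scaling (14.0% of calls higher, beside 54.8%), 7, 29 and 0 with no filter on dim probes, 338, 240 and 3 for genes above background on all 6 arrays, 18, 35 and 0 with the slide as a block, and 418, 376 and 3 with a mean-variance trend. Where no member passed, 4 of the 9 without the filter had an unadjusted p under 0.05 and 5 with the slide as a block, each beside 12.6% of all tested genes. No member passed either without PBS 1, PBS 2, PBS 3 or Anakinra 1. There 3, 3, 4 and 3 members had an unadjusted p under 0.05, beside 9.65%, 8.39%, 11.1% and 18.4% of all tested genes. Leaving out 1 array in turn gave 1 to 96 genes higher, 7 to 136 lower and 0 to 1 members. With the replicate block, limma called 0 genes higher, 0 lower and 0 members, while 1768 genes (10.7% of those tested) and 3 members had an unadjusted p under 0.05. Whether the replicate numbers pair the samples is not known. Deviations of same-numbered arrays from their group means correlated at 0.41, -0.49 and -0.21, and those of differently numbered arrays ran from -0.67 to 0.70. With 3 arrays a group the deviations depend on each other, so these values cannot settle it.

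Per-array median scaling moved each named gene by -0.33, which turned the sign of changes smaller than that: Klk6 was at -0.25, Klk7 at -0.064, Klk8 at -0.067, Klk10 at -0.054, Klk1b3 at -0.18, Spink2 at -0.14, Krt6a at -0.066, Dsp at -0.13, Prss8 at -0.28, F2rl1 at -0.057, Pecam1 at -0.21 and Vwf at -0.22. Pecam1 was at -0.034 with quantile normalisation, -0.0048 with array weights and from -0.12 to 0.24 with 1 array left out. Vwf was at -0.21 with quantile normalisation, -0.033 with the slide as a block and from -0.12 to 0.27 with 1 array left out. Spink5 was at 0.048 with quantile normalisation, 0.044 with the deposited values and 0.051 with array weights, and from -0.062 to 0.037 with 1 array left out. Spink12 was at 0.019 with the deposited values and from -0.16 to 0.14 with 1 array left out. Klk1b26 was at -0.60 with array weights and from -0.13 to 2.25 with 1 array left out, where Klk9 ran from -0.15 to 0.96 and Klk1b3 from -0.011 to 0.35. None of these sign changes passed the threshold; for those outside median scaling the cause was not tested.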
